A study of Mus musculus with 18 samples.

Results

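The comparison set out here is 8 h against 0 h in NIH3T3, a fibroblast line from mouse embryos, across every gene of the deposited expression table. It was chosen by the time in the column names, with no use of measured values, and takes 4 of the 18 RNA-seq libraries, 2 at 8 h and 2 at 0 h. All cultures, those at 0 h included, had received 100 nM dexamethasone, a synthetic glucocorticoid, for 2 h. Normal culture medium then replaced it, and that moment is 0 h. The 8 h libraries (replicate 1 and replicate 2) come from cells taken 8 h later, and the 0 h libraries (replicate 1 and replicate 2) from cells taken at the change itself. The series continued every 4 h to 32 h, and its title names the circadian rhythm as its subject. A second step of the same length and the same clock times a day on, 32 h against 24 h with 2 libraries at each time, shares no library with the first and is set beside it below. Cells without the pulse were not analysed here, so no untreated level stands beside the 0 h level.

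Most mammalian cells, fibroblasts included, hold a circadian clock in which CLOCK and BMAL1 (the product of Arntl) bind E-box sequences and switch on the Period, Cryptochrome and REV-ERB genes, whose products in turn shut the drive down. A glucocorticoid pulse aligns the clocks of a culture, because the receptor binds the Per1 gene directly. The same pulse acts on many other glucocorticoid targets. In general, fresh medium with serum growth factors brings on immediate early genes, which are transcribed within minutes without new protein synthesis and decline within hours. The 0 h cells were taken at the change of medium, and what set their levels was not tested.

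Levels are normalized reads, that is, reads per gene divided by 1 factor per library by the authors. The libraries held 27.7 to 34.7 M reads at 8 h and 25.4 to 38.9 M reads at 0 h, within the range of all 18 libraries. Normalized totals were 31.6 to 31.8 M at 8 h and 34.9 to 35.1 M at 0 h, and the share of all reads held by the top 10 genes was 6.94% to 6.95% at 8 h and 8.05% to 8.09% at 0 h. The genes that averaged 10 or more normalized reads over the 18 libraries (12393 of 21937) were tested with limma on log2(value + 1), and a gene was called where its Benjamini-Hochberg adjusted p was under 0.05. A log2 change is 8 h minus 0 h, given ± SE, and understates the change of low genes. Nothing in the labels says that the 2 replicates were separate cultures, so the p-values measure the spread between these libraries only. Of the cell type markers, collagen and other mesenchymal genes were high in all 4 libraries. Col1a2, a chain of type I collagen, had 198084 and 197046 normalized reads at 8 h, against 217497 and 251860 at 0 h, and Col3a1, of type III collagen, had 51221 and 57332 normalized reads at 8 h, against 69819 and 90596 at 0 h. Twist1, a mesenchymal transcription factor, had 995 and 1249 normalized reads at 8 h, against 1206 and 1396 at 0 h. Epcam and Cdh1 (epithelium), Ptprc (leukocytes) and Kdr (endothelium) had at most 4.55 normalized reads in any of the 4 libraries. Other members of these lists had more. Krt8, an epithelial keratin, had 536 and 410 normalized reads at 8 h, against 1079 and 791 at 0 h. The leukocyte list summed to 403 to 479 at 8 h and 421.5 to 476 at 0 h. For the endothelial list the sums were 95.4 to 106 at 8 h and 70.03 to 79.5 at 0 h. Among the fibroblast markers Fap, a surface protease, was low (13.7 and 10.3 normalized reads at 8 h, against 19.9 and 11 at 0 h). Lum was lower still (3.64 and 5.75 at 8 h, against 6.32 and 6.86 at 0 h) and was not tested. Apart from such members the fibroblast label matched its markers, and some markers of other cell types were present as well.

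A large part of the tested genes differed between 8 h and 0 h. limma called 4263 genes (34.4%), of which 2144 were higher at 8 h (17.3%) and 2119 were lower (17.1%). The calls were even in number and uneven in size. Only 83 genes were higher by at least 2-fold (0.67%), whereas 273 were lower by at least 2-fold (2.2%). Past 4-fold, 2 genes were higher and 32 lower. In all 4263 called genes the change had the same sign in both replicate numbers, and in all but 1 the 8 h libraries lay wholly on one side of the 0 h libraries. That separation is common, since 32.0% of all tested genes had both 8 h libraries above both 0 h libraries and 32.1% had them below. With totals rescaled to be equal, the median of all genes moved by 0.14 on the log2 scale, and 77.7% of the called genes were higher at 8 h, against 50.3% with the deposited scaling. All changes are given relative to the deposited scaling, under which the median gene was at -0.0043 on the log2 scale. Without replicate 2 of 0 h the number of calls was 2571.

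**Figure D1:**
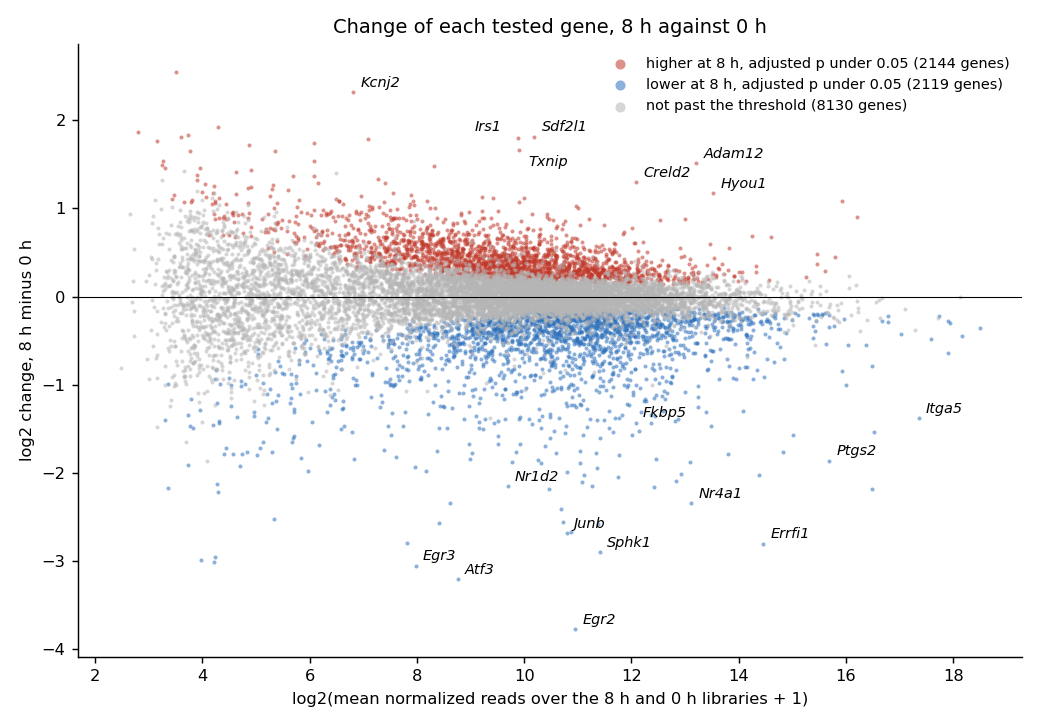
Log2 change of each of the 12393 tested genes, 8 h minus 0 h (vertical axis), against log2 of its mean normalized reads over the 4 libraries plus 1 (horizontal axis). Red points are the 2144 genes called higher at 8 h, blue points the 2119 called lower and grey points the rest. The downward tail reaches further than the upward one, to -3.77 for Egr2, and Atf3, Egr3 and Errfi1 are among the other large falls.

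The largest falls among called genes that averaged 50 or more normalized reads over the 4 libraries included those of several immediate early genes. Egr2, a zinc finger factor of the early growth response family, had 271 and 262 normalized reads at 8 h, against 3095 and 4306 at 0 h (log2 change -3.77 ± 0.13, adjusted p = 4.21e-10). Atf3, a stress and serum induced bZIP factor, had 81.9 and 85.1 normalized reads at 8 h, against 715 and 847 at 0 h (log2 -3.21). Errfi1, a feedback inhibitor of the EGF receptor, had 5309.9 and 5871 normalized reads at 8 h, against 34713 and 43853 at 0 h (log2 -2.80). The 8 h libraries lay far below the 0 h libraries for each of these genes, and the pairs at 8 h differed little. Sphk1, the kinase that makes sphingosine 1-phosphate, had 699 and 583 normalized reads at 8 h, against 5188 and 4406 at 0 h, a change of -2.90 ± 0.10 (adjusted p = 5.99e-10). The rest of the 12 were Egr3, Junb, Kctd11, Btg2, Fosb, Nppb, 1810011O10Rik and Aspn, with log2 changes from -3.05 for Egr3 to -2.41 for 1810011O10Rik. Aspn, a small matrix proteoglycan, had 25.5 and 89.7 normalized reads at 8 h, against 198 and 579 at 0 h. Its replicates stood apart at both times, and its call (adjusted p = 0.0259) was lost without replicate 1 of 8 h (adjusted p = 0.208) or without replicate 2 of 0 h (adjusted p = 0.206).

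The largest rises were smaller and came from genes of mixed function. Kcnj2, an inward rectifier potassium channel, had 167 and 205 normalized reads at 8 h, against 41.5 and 31.6 at 0 h (log2 2.32 ± 0.16, adjusted p = 1.81e-07), a 4.99-fold higher level. Sdf2l1, a cofactor of the endoplasmic reticulum chaperone BiP, had 1787 and 1848 normalized reads at 8 h, against 573 and 464 at 0 h (log2 1.81). Irs1, the adaptor that links insulin and IGF1 receptors to PI3-kinase, had 1387 and 1546 normalized reads at 8 h, against 462 and 386 at 0 h (log2 1.79). In each case the lower 8 h library was more than 2-fold above the higher 0 h library. Txnip, an arrestin-like protein that binds thioredoxin and restrains glucose uptake, had 1193 and 1725 normalized reads at 8 h, against 375 and 548 at 0 h (log2 1.66). Adam12, a membrane metalloprotease, had 13988 and 13887 normalized reads at 8 h, against 6352 and 3751 at 0 h (log2 1.51). Dio2, which makes active thyroid hormone, had 401 and 540.2 normalized reads at 8 h, against 146 and 188 at 0 h (log2 1.48), and Il15, a cytokine, had 76.4 and 119.5 normalized reads at 8 h, against 34.3 and 38.4 at 0 h (log2 1.37). Runx1t1, Akap17b, Rnf122, Fam26e and 9330159F19Rik completed the 12, with log2 changes from 1.34 to 1.79.

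Clock genes with E-box or D-box control were mostly lower at 8 h. Of 16 listed and tested genes, 12 fell and 1 rose, beside 17.1% and 17.3% of all tested genes. The median log2 change was -1.11, beside -0.0043 over all tested genes. The 2 promoters below are shown because Per1 and Tef fell and carry the E-box CACGTG (in capitals) within the 300 bases from 250 before to 50 after an annotated start. They are RefSeq sequences of the build GRCm38.p6. The Per1 stretch is chr11:69098743-69098828 on the plus strand and the Tef stretches, from 2 starts of the gene, are chr15:81802506-81802591 on the plus strand and chr15:81811236-81811321 on the plus strand.
Per1 promoter: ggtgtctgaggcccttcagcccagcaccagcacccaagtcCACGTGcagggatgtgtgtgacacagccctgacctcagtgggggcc
Tef promoter: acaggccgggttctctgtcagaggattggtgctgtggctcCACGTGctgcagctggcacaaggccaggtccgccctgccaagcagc
Tef promoter: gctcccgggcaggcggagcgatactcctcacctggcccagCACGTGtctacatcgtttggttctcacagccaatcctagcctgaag
An E-box reads the same on both strands. Windows were matched for 9739 of the 12393 tested genes (78.6%), so motif shares describe those genes and not the table. Of these, 1151 had an E-box (11.8%), and 16.9% of the 1151 were higher at 8 h and 17.7% lower, beside 18% and 17.3% of all 9739. Of the 12 matched genes of the clock list 5 (41.7%) held an E-box. They were Per1, Tef, Gm129 and Bhlhe41, which fell, and Cry1, which rose. Per3 alone held a D-box.

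The negative limb of the clock held large falls. Nr1d2, which encodes the repressor REV-ERB beta, had 325 and 282 normalized reads at 8 h, against 1236 and 1462 at 0 h (log2 -2.15 ± 0.11, adjusted p = 8.29e-09). Nr1d1, its paralog REV-ERB alpha, had 711 and 569 normalized reads at 8 h, against 2034 and 2077 at 0 h (log2 -1.69, adjusted p = 2.89e-06). The 8 h libraries lay far below the 0 h libraries for both genes. Among the Period genes, which encode the repressors that partner the Cryptochromes, Per1 had 2981 and 2977 normalized reads at 8 h, against 7102 and 8058 at 0 h (log2 -1.34). Per2 had 704 and 835 normalized reads at 8 h, against 1795 and 2709 at 0 h (log2 -1.52), and Per3 had 329 and 289 normalized reads at 8 h, against 753 and 913 at 0 h (log2 -1.42). Bhlhe40, which encodes the E-box binding repressor DEC1, had 1236 and 1098 normalized reads at 8 h, against 3877 and 4102 at 0 h (log2 -1.77, adjusted p = 3.72e-08).

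The output factors of the PAR bZIP family, which bind D-boxes, were less uniform. Tef had 1899 and 1918 normalized reads at 8 h, against 3136 and 3763 at 0 h (log2 -0.85, adjusted p = 7.74e-05). Hlf had 602 and 976 normalized reads at 8 h, against 415 and 636 at 0 h, with replicate 2 above replicate 1 at both times, and was not called (log2 0.58, adjusted p = 0.182), although it was higher at 8 h with replicate number as a block (adjusted p = 2.27e-05). Dbp was low, with 7.28 and 12.6 normalized reads at 8 h, against 19.9 and 63.2 at 0 h. Its log2 change of -1.78 had an adjusted p of 0.00869, which became 0.141 without replicate 2 of 0 h and 0.0807 without replicate 1 of 8 h. Nfil3, whose product competes for the same D-boxes, had 1208 and 1393 normalized reads at 8 h, against 2573 and 3093 at 0 h (log2 -1.12, adjusted p = 4.93e-06).

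Cryptochrome 1 went the other way. Cry1, the stronger repressor of the pair, had 1095 and 1309 normalized reads at 8 h, against 614 and 847 at 0 h (log2 0.73 ± 0.17, adjusted p = 0.0043), a call lost without replicate 1 of 0 h (adjusted p = 0.0558). Cry2 had 809.9 and 786 normalized reads at 8 h, against 759 and 891 at 0 h, and the 95% interval of its log2 change was -0.31 to 0.22. Arntl, which is repressed by the REV-ERB proteins, had 984 and 1000 normalized reads at 8 h, against 800.2 and 692 at 0 h (log2 0.41, adjusted p = 0.00259). Its partner Clock had 2497 and 2578 normalized reads at 8 h, against 2476 and 2399 at 0 h, with an interval of -0.073 to 0.19. Of the 3 tested genes under REV-ERB and ROR control, Arntl rose, Nfil3 fell and Clock was not called. Of the other listed clock genes, Bhlhe41 fell (log2 -1.58), as did Wee1, a mitotic kinase gene with clock-driven transcription in liver (log2 -0.42). Gm129, which encodes the repressor CHRONO, was called lower at -0.87 and Usp2, a deubiquitinase gene, at -0.39, but the call of Gm129 was lost whichever of the 4 libraries was left out (adjusted p = 0.0594 to 0.134), and that of Usp2 in 9 of 17 alternatives, with adjusted p of 0.0607 by edgeR, 0.0589 by DESeq2 and 0.333 without replicate 2 of 8 h.

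Among 11 tested clock kinases, ligases and cofactors, 3 were lower and 1 was higher, beside 17.1% and 17.3% of all tested genes. Csnk1e, a casein kinase that marks PERIOD proteins for degradation, had 4295 and 3975 normalized reads at 8 h, against 6659 and 6195 at 0 h (log2 -0.64, adjusted p = 3.09e-06). Fbxw11, a ubiquitin ligase subunit for the same proteins, had 3515 and 3994 normalized reads at 8 h, against 4675 and 4855 at 0 h (log2 -0.35), and the casein kinase gene Csnk1a1 had 13450 and 15446 normalized reads at 8 h, against 16807 and 19304 at 0 h (log2 -0.32), a call lost with equal totals (adjusted p = 0.15), without replicate 1 of 8 h and without replicate 2 of 0 h. Timeless, best known in mammals for its role at replication forks, was higher, with 2976 and 2601 normalized reads at 8 h, against 2094 and 1789 at 0 h (log2 0.52). Btrc, the other ubiquitin ligase subunit, had 609 and 677 normalized reads at 8 h, against 561 and 567 at 0 h and was not called (log2 0.19, adjusted p = 0.0732), although it was called higher under the replicate block (adjusted p = 0.0287). Csnk1d, Gsk3b, Wdr5, Arntl2 and Nono were not called, with log2 changes between -0.083 (Csnk1d) and 0.10 (Arntl2). The median of this list had no fixed sign, being -0.0091 with the deposited scaling and 0.13 with equal totals.

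**Figure D2:**
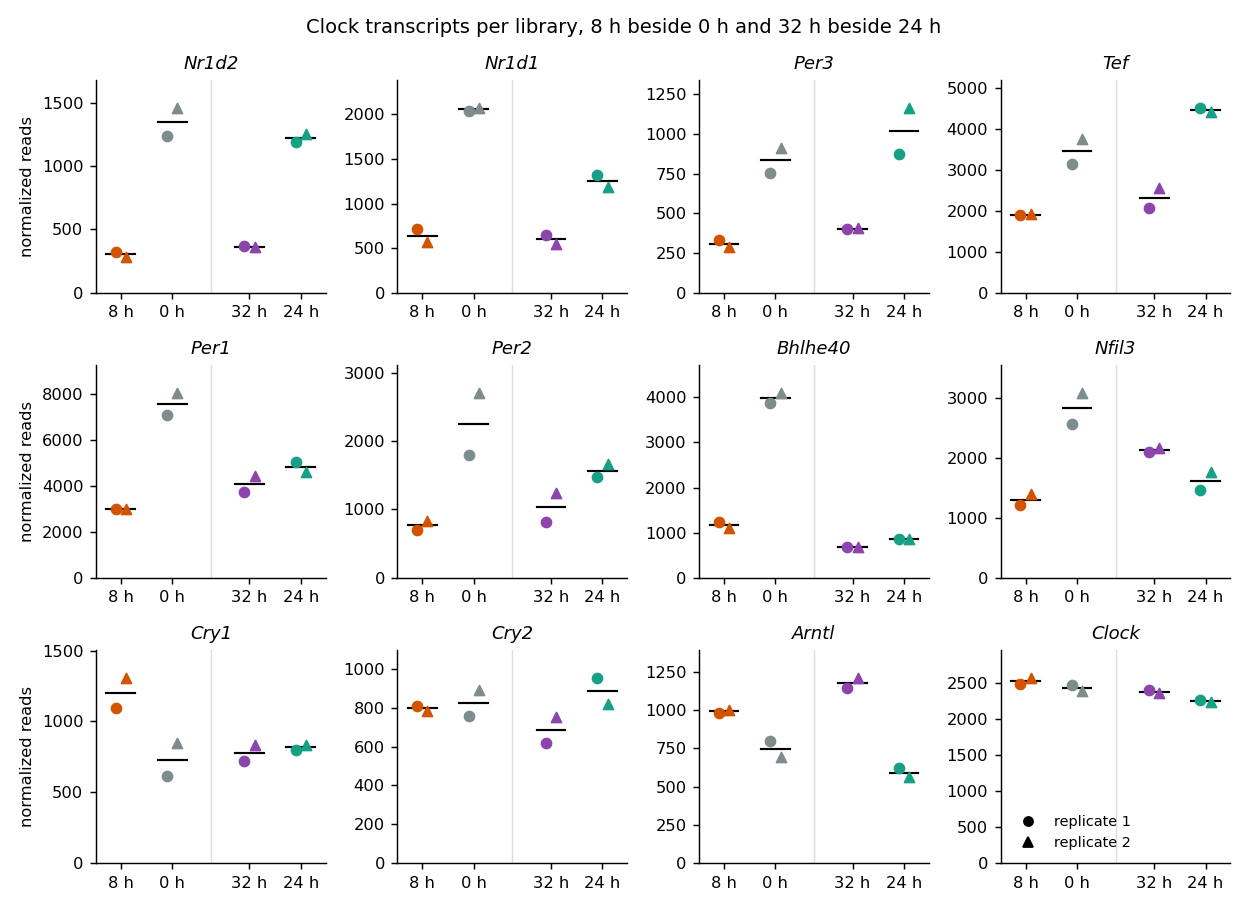
Normalized reads of 12 clock genes in single libraries (circles replicate 1, triangles replicate 2, bars the mean of 2), with 8 h left of 0 h and 32 h left of 24 h, on axes from 0. Nr1d2, Nr1d1, Per3 and Tef were lower at the later time on both days, and Bhlhe40 and Per1 stood far lower at 24 h than at 0 h.

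A day on, the same step gave few calls without the replicate block. limma called 5 genes at 32 h against 24 h (0.0403%), 1 higher (0.00807%) and 4 lower (0.0323%), with 995 genes at an unadjusted p under 0.05. edgeR also called 5 genes, DESeq2 12, and limma with a replicate block 242. All 5 of the limma calls belong to the clock lists. Nr1d2 (log2 -1.75), Per3 (-1.33), Nr1d1 (-1.07) and Tef (-0.95) were lower at 32 h, and Arntl was higher (1.0). Nr1d2 had 369 and 358 normalized reads at 32 h, against 1189 and 1256 at 24 h. Arntl had 1148 and 1213 normalized reads at 32 h, against 620.1 and 564 at 24 h, higher at the later time as on the first day.

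The 2 steps were compared gene by gene in the same model, as the change from 0 h to 8 h minus the change from 24 h to 32 h. This difference was called for 2508 genes (20.2%), 1210 above 0 (9.76%) and 1298 below 0 (10.5%), and for 4510 with a replicate block. For Nr1d2 it was -0.40 ± 0.15 (95% interval -0.73 to -0.075), for Per3 -0.094 ± 0.22 (-0.57 to 0.39) and for Tef 0.10 ± 0.16 (-0.24 to 0.45), none of them called after adjustment. Nr1d1 changed by -1.69 from 0 h to 8 h and by -1.07 from 24 h to 32 h, and its difference was not called either. The difference was called for Bhlhe40 (-1.43 ± 0.15, adjusted p = 2.27e-05), Per1 (-1.10 ± 0.12, adjusted p = 2.83e-05) and Nfil3 (-1.52 ± 0.16, adjusted p = 2.27e-05). Bhlhe40 had 678 and 689 normalized reads at 32 h and 863 and 869.7 at 24 h, and all 4 values were far under the 0 h level. Nfil3 had 2094 and 2168 at 32 h and 1472 and 1759 at 24 h, so that its levels were higher at 32 h on the second day and lower at 8 h on the first. Smaller differences were called for Per2 (-0.89, adjusted p = 0.0398), Cry1 (0.80, adjusted p = 0.0293) and Arntl (-0.58, adjusted p = 0.00523). That of Cry1 was lost in 6 settings, among them without replicate 1 of 0 h (adjusted p = 0.104), of 32 h or of 24 h.

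**Figure D3:**
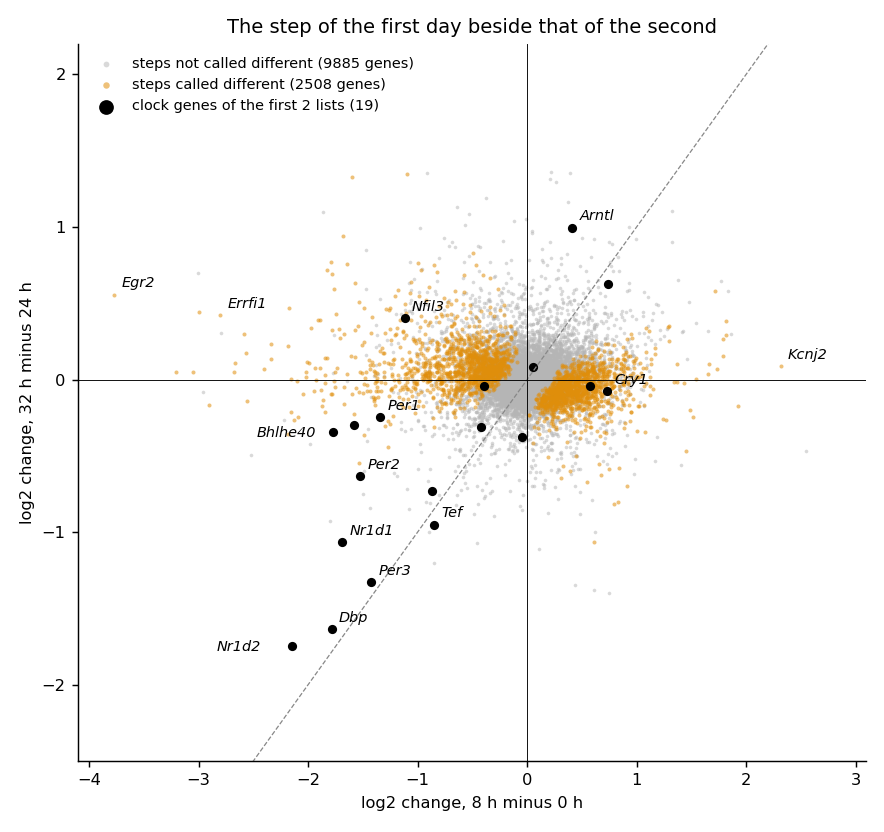
Log2 change from 0 h to 8 h (horizontal axis) and from 24 h to 32 h (vertical axis) of each tested gene. Orange points are the 2508 genes whose 2 changes were called different, grey points the rest, black points the 19 tested genes of the first 2 clock lists, and the dashed line marks equal changes. Nr1d2, Dbp, Per3 and Tef lie near the dashed line, while Egr2, Errfi1 and Kcnj2 lie far from it, at 0.56, 0.42 and 0.088 on the vertical axis.

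Glucocorticoid receptor targets mostly fell. Of 23 tested genes, 15 were lower at 8 h and 2 higher (median log2 -0.62), beside 17.1% and 17.3% of all tested genes. Fkbp5, a co-chaperone that lowers the receptor's hormone affinity, had 2321 and 2346 normalized reads at 8 h, against 6664 and 5959 at 0 h (log2 -1.43 ± 0.063, adjusted p = 3.96e-09). Mt1, a metallothionein that binds zinc, had 1156 and 1267 normalized reads at 8 h, against 3025 and 3754 at 0 h (log2 -1.48), and Dusp1, a phosphatase of p38 and JNK kinases, had 1317 and 1315 normalized reads at 8 h, against 3111 and 3843 at 0 h (log2 -1.39). For all 3 the 2 libraries at 8 h were close to each other and well below both 0 h libraries. At 32 h against 24 h none of them was called, with changes of -0.075 for Fkbp5, 0.0072 for Mt1 and 0.031 for Dusp1. Tsc22d3 (GILZ), a mediator of glucocorticoid action, and Klf9, a Krüppel-like factor, were named after their values were seen: Tsc22d3 had 312 and 389.7 normalized reads at 8 h, against 656 and 800.5 at 0 h (log2 -1.05), and Klf9 had 1401 and 1717 normalized reads at 8 h, against 3295 and 5070.4 at 0 h (log2 -1.40).

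Most immediate early genes were lower at 8 h. Of 25 tested EGR, NR4A and other immediate early factors, 20 fell and 1 rose (median log2 -1.37), beside 17.1% and 17.3% of all tested genes. Nr4a1, an orphan nuclear receptor, had 2983 and 2783 normalized reads at 8 h, against 12477 and 17129 at 0 h (log2 -2.34, adjusted p = 4.55e-09). Maff, a small MAF bZIP factor, had 728 and 687 normalized reads at 8 h, against 2163 and 2129.5 at 0 h (log2 -1.60), and Ier5, a serum induced regulator of stress responses, had 3654 and 3506 normalized reads at 8 h, against 6049 and 6340.4 at 0 h (log2 -0.79). The one riser was Nr4a2, a paralog of Nr4a1, which was singled out after its values were seen, with 162 and 169 normalized reads at 8 h, against 98.4 and 118 at 0 h (log2 0.61, adjusted p = 0.00304). Among the 9 tested AP-1 subunits, which pair as FOS and JUN dimers, 7 fell and 0 rose (median log2 -1.13). Junb had 548 and 401 normalized reads at 8 h, against 2492 and 3648 at 0 h (log2 -2.68), Fosb had 101 and 92 normalized reads at 8 h, against 502 and 663 at 0 h (log2 -2.57), and Jun had 4127 and 3473 normalized reads at 8 h, against 7869.9 and 8721 at 0 h (log2 -1.13). Jund (log2 -1.24) and Fosl2 (log2 -0.90) fell as well.

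Feedback inhibitors of the MAP kinase cascade, which growth factors switch on and which then dampen the signal, followed. Of 16 tested genes, 15 fell and 1 rose (median log2 -1.02), beside 17.1% and 17.3% of all tested genes. Dusp6, a phosphatase of ERK, had 1885 and 1824 normalized reads at 8 h, against 4861 and 4760.1 at 0 h (log2 -1.37 ± 0.067, adjusted p = 7.18e-09). Spry4, a Sprouty inhibitor, had 439.5 and 403 normalized reads at 8 h, against 1421 and 1436 at 0 h (log2 -1.76), and Dusp7 had 1148 and 1229 normalized reads at 8 h, against 2585 and 2633 at 0 h (log2 -1.13). The replicates at each time lay close together beside these gaps. Of 4 tested ligands of the EGF receptor family, 2 fell. Hbegf had 2223 and 1783 normalized reads at 8 h, against 9103 and 8716 at 0 h (log2 -2.16). Ereg had 2832 and 2681 normalized reads at 8 h, against 12135 and 11414 at 0 h (log2 -2.09). Btc and Nrg1 were not called, with intervals of -0.071 to 0.75 and -0.15 to 0.31.

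Targets of serum response factor (SRF) and its actin-sensing MRTF cofactors, which encode actin and focal adhesion proteins, had a smaller median fall. Of 24 tested genes 20 were lower and 0 higher (median log2 -0.47), beside 17.1% and 17.3% of all tested genes. All 24 had both 8 h libraries below both 0 h libraries, as had 32.1% of all tested genes. The calls numbered 10 with quantile normalization and 15 with equal totals, without replicate 1 of 8 h or without replicate 2 of 0 h. Stretches of promoter from the same RefSeq windows are shown because these genes fell and hold a CArG box, the SRF site, written as CC, then 6 bases that are each A or T, then GG (in capitals). The search covered both strands. The Egr2 stretches, from 2 starts, are chr10:67537454-67537543 on the plus strand and chr10:67537757-67537846 on the plus strand, the Srf stretch is chr17:46556175-46556284 on the minus strand, the Vcl stretch chr14:20929148-20929220 on the plus strand and the Lima1 stretch chr15:99820147-99820236 on the minus strand.
Egr2 promoter: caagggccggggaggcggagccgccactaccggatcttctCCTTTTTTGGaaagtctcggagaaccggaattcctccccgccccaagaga
Egr2 promoter: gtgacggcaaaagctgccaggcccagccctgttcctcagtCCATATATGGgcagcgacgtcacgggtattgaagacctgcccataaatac
Srf promoter: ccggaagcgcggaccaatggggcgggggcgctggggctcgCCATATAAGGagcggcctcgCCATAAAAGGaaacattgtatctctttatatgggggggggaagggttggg
Vcl promoter: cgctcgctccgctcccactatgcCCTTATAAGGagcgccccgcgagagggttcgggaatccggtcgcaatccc
Lima1 promoter: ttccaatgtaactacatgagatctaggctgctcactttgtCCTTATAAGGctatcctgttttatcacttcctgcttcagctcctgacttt
Of the 20 matched genes of the cytoskeletal list 10 (50%) held such a box, against 1.6% of the 9739 matched genes (1.63% of all 32851 RefSeq windows). Egr2 is not in that list but among the immediate early factors, of which 3 of 19 matched genes (15.8%) held one. Of the 156 matched tested genes with a CArG box, 58 fell (37.2%) and 18 rose (11.5%), beside 17.3% and 18% of the 9739 matched genes. The list and this group share members and are not independent of each other.

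Zyx, which encodes the focal adhesion protein zyxin, had 15853 and 15609.7 normalized reads at 8 h, against 24971 and 23703 at 0 h (log2 -0.63 ± 0.051, adjusted p = 7.88e-07). Lima1, an actin filament crosslinker, had 15534 and 16142 normalized reads at 8 h, against 28515 and 31239.5 at 0 h (log2 -0.91), and Fhl2, a LIM protein of focal adhesions, had 4017 and 4377 normalized reads at 8 h, against 7625 and 8187 at 0 h (log2 -0.91). The replicates at each time were close to each other for all 3 genes. Srf itself had 3074 and 3108 normalized reads at 8 h, against 5196 and 5786 at 0 h (log2 -0.83), and Vcl, which encodes vinculin, had 21851 and 21933 normalized reads at 8 h, against 31829 and 31351 at 0 h (log2 -0.53). Among integrins, the receptors that tie this machinery to the matrix, 6 of 16 fell and 1 rose, with 10 lower under the replicate block, 3 without replicate 1 of 8 h or replicate 2 of 0 h, and 4 without replicate 1 of 0 h. For comparison with these integrin counts, 17.1% of all tested genes were called lower and 17.3% higher. Itga5, the fibronectin receptor chain, had 101855 and 84458 normalized reads at 8 h, against 260219 and 223345 at 0 h (log2 -1.38, adjusted p = 2.26e-07). Itgb5 fell as well (log2 -0.66, adjusted p = 4.38e-06). Itga8 (-1.77), Itgb3 (-0.68) and Itga1 (-1.38) were called with calls that did not hold without some single libraries, with adjusted p up to 0.0747, 0.108 and 0.211.

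Targets of YAP and TAZ, the coactivators that respond to cell tension, were divided. Of 17 tested genes 5 fell and 2 rose, beside 17.1% of all tested genes called lower and 17.3% called higher. The replicate block gave 8 lower and 2 higher, equal totals 4 and 4, and quantile normalization 4 and 3. F3, which encodes tissue factor, had 13576 and 12813 normalized reads at 8 h, against 47018 and 42816 at 0 h (log2 -1.77), Ctgf had 52310.2 and 44143 normalized reads at 8 h, against 152487 and 128108 at 0 h (log2 -1.54), and Cyr61, a secreted matricellular relative, had 46917 and 40437 normalized reads at 8 h, against 96772 and 78315 at 0 h (log2 -1.0). Gadd45b, a stress sensor, fell (log2 -0.77). Ptpn14, a phosphatase that restrains YAP, rose, with 3576 and 3985 normalized reads at 8 h, against 2896 and 2871 at 0 h (log2 0.39, adjusted p = 0.0011). Of 16 tested TGF-beta ligands and feedback genes, 10 fell and 0 rose (median log2 -0.55). Pmepa1, an inhibitor of SMAD signaling, had 3620 and 3554 normalized reads at 8 h, against 9208 and 8409.5 at 0 h (log2 -1.29 ± 0.083, adjusted p = 9.59e-08). Skil, a SMAD corepressor, had 2065 and 2110.4 normalized reads at 8 h, against 5687 and 6718 at 0 h (log2 -1.57), and the 8 h libraries lay well below the 0 h libraries for both genes. Tgif1 (-0.96), of another SMAD corepressor, and the receptor gene Tgfbr1 (-0.93) fell too. In the neighboring BMP branch 3 of the 4 tested inhibitors of DNA binding were called higher. Id3 had 2324 and 3145 normalized reads at 8 h, against 1122 and 1629.7 at 0 h (log2 1.0, adjusted p = 0.000693). Id4 (1.08) and Id2 (0.84) were also called, but not without replicate 1 of 0 h (adjusted p = 0.138 and 0.124) or without replicate 2 of 8 h. Id1 had 875 and 961 normalized reads at 8 h, against 822 and 1075 at 0 h and was not called (adjusted p = 0.844). Smad1 (-1.03) and Bmpr2 (-0.49), a transducer and a receptor of the branch, fell. In this list 3 of 12 tested genes rose and 2 fell, beside 17.3% and 17.1% of all tested genes, with a median log2 change of 0.037.

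Matrix genes changed member by member. The medians of the collagen and protease lists changed sign with the scaling, and those of the IGF and glycoprotein lists did not. Of 21 tested collagens 5 fell and 2 rose, beside 17.1% of all tested genes called lower and 17.3% called higher. The replicate block gave 12 lower and 4 higher, equal totals 2 and 3, and quantile normalization 3 and 4, and 2 were lower without replicate 2 of either time. Col8a1, of a short-chain collagen, had 6142 and 6717 normalized reads at 8 h, against 8574 and 10334 at 0 h (log2 -0.55), and Col5a3, of the fibril-regulating type V, had 1711 and 1105 normalized reads at 8 h, against 642 and 621 at 0 h (log2 1.12, adjusted p = 0.00436), a call lost without replicate 1 of 8 h (adjusted p = 0.0603). Of 24 tested matrix glycoproteins and proteoglycans 9 fell (18 with the block) and 1 rose. The riser was Fbn1, which encodes the microfibril protein fibrillin 1, with 24802 and 23331 normalized reads at 8 h, against 15097 and 14853 at 0 h (log2 0.68 ± 0.064, adjusted p = 2.78e-06). Ogn, a small proteoglycan, had 671 and 1148 normalized reads at 8 h, against 2711 and 3898 at 0 h (log2 -1.89), and Dcn, which encodes decorin, had 221 and 209 normalized reads at 8 h, against 418 and 446 at 0 h (log2 -1.0). Thbs2 (-0.67) and Lamc1 (-0.47) fell as well. Of 30 tested matrix proteases and inhibitors 11 fell and 6 rose (8 and 8 with equal totals), beside 17.1% and 17.3% of all tested genes. The number higher was 3 without replicate 1 of 8 h or without replicate 2 of 0 h, and 4 without replicate 1 of 0 h. Timp3, an inhibitor of metalloproteases, had 15312 and 18028 normalized reads at 8 h, against 46974 and 52150 at 0 h (log2 -1.57, adjusted p = 1.81e-07). The 2 plasminogen activators parted: Plau (urokinase) had 6601 and 5808 normalized reads at 8 h, against 15867 and 14738 at 0 h (log2 -1.30), whereas Plat (tissue type) had 1261 and 1415 normalized reads at 8 h, against 739.7 and 835 at 0 h (log2 0.76).

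Most listed chaperones of the endoplasmic reticulum (ER) rose. The list holds the folding and degradation machinery for secreted proteins that the unfolded protein response raises. Of 28 tested genes 22 rose and 1 fell, beside 17.3% and 17.1% of all tested genes, with a median log2 change of 0.46. At least 17 were called higher whichever single library was left out. The promoters of 4 genes are shown because these genes rose and hold the ER stress response element, CCAAT and CCACG with 9 bases between them (in capitals, on either strand), in the RefSeq windows. The Hspa5 stretch is chr2:34771985-34772083 on the plus strand, Creld2 chr15:88819480-88819578 on the plus strand, Dnajc3 chr14:118937787-118937885 on the plus strand and Hsp90b1 chr10:86705493-86705694 on the minus strand, which holds 2 elements.
Hspa5 promoter: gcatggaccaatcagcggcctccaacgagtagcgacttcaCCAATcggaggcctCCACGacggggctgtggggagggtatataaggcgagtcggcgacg
Creld2 promoter: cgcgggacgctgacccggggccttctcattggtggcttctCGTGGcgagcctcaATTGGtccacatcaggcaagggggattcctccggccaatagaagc
Dnajc3 promoter: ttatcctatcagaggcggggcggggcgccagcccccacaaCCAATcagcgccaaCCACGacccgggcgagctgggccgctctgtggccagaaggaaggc
Hsp90b1 promoter: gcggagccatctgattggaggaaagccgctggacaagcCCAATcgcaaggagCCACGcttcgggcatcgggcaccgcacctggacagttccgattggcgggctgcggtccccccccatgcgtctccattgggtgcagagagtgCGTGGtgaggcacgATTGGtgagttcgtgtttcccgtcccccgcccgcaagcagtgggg
Such an element was present in 9 of the 24 matched list members (37.5%), in 0.175% of the 9739 matched genes and in 0.119% of all 32851 windows. Of the 17 matched tested genes that hold it, 12 rose (70.6%) and 0 fell, and 9 of the 17 are the list members just counted.

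Hyou1, an ER chaperone of the HSP110 family, had 16983 and 15691 normalized reads at 8 h, against 7767 and 6781 at 0 h (log2 1.17 ± 0.10, adjusted p = 1.71e-06). Creld2, a stress induced ER protein, had 6296 and 6071 normalized reads at 8 h, against 2672 and 2364 at 0 h (log2 1.30), and Pdia4, a disulfide isomerase, had 10637 and 10578 normalized reads at 8 h, against 5860.4 and 5712 at 0 h (log2 0.87). Dnajc3, a BiP cochaperone, had 4327 and 4773 normalized reads at 8 h, against 2779.8 and 2757 at 0 h (log2 0.71). The 8 h libraries lay above the 0 h libraries for each of these members, by 1.64-fold on average for Dnajc3 and 2.46-fold for Creld2. Hspa5, which encodes BiP, and Hsp90b1, which encodes GRP94, were added after their values were seen, because their promoters are printed. Hspa5 had 86437 and 81640 normalized reads at 8 h, against 42740 and 36615 at 0 h (log2 1.09), and Hsp90b1 had 103100 and 94124 normalized reads at 8 h, against 54838 and 50627 at 0 h (log2 0.90). Against 0 h the median of the list stood at 0.53 (4 h), 0.46 (8 h) and 0.16 (12 h), all on the log2 scale and against the same 0 h libraries.

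The ATF4 amino acid response and the tRNA synthetases moved by less. Of 27 tested ATF4 genes 9 rose and 4 fell, beside 17.3% and 17.1% of all tested genes. The replicate block gave 16 higher and 5 lower, equal totals 15 and 2, and 5 were higher without replicate 1 of 8 h or replicate 2 of 0 h. Ddit3, the pro-apoptotic factor CHOP, had 758 and 840.3 normalized reads at 8 h, against 492 and 489 at 0 h (log2 0.70, adjusted p = 0.000994), Gpt2, an alanine aminotransferase, had 1693 and 1832 normalized reads at 8 h, against 1190.3 and 1277 at 0 h (log2 0.51), and the proline and serine synthesis genes Aldh18a1 (0.34) and Psat1 (0.28) rose. Cebpb, a bZIP factor also counted among early response genes, fell, with 835 and 951 normalized reads at 8 h, against 2046 and 2609 at 0 h (log2 -1.37). Of 20 tested aminoacyl-tRNA synthetases 7 rose and 0 fell, beside the same shares of all tested genes. The number higher was 16 with the replicate block, 17 with quantile normalization and 20 with equal totals, and 2 without replicate 1 of 8 h or 3 without replicate 2 of 0 h. Farsb, a subunit of the phenylalanine enzyme, had 3513 and 3593 normalized reads at 8 h, against 2886 and 2753 at 0 h (log2 0.33), and Wars had 4827 and 4889.8 normalized reads at 8 h, against 4093 and 3949 at 0 h (log2 0.27). Aars, Eprs and Iars rose by 0.17 to 0.31, with calls lost without single libraries. Cytosolic heat shock proteins showed no common direction. Of 19 tested 2 rose and 5 fell, beside 17.3% and 17.1% of all tested genes. Equal totals gave 8 higher and 3 lower, and quantile normalization 7 and 4. Dnajb4 had 3934 and 4328 normalized reads at 8 h, against 10078 and 11624 at 0 h (log2 -1.39), Bag3 (-0.43) and Hspb8 (-0.37) were lower, and the heat shock factor gene Hsf2 was higher (0.61). Of 31 tested proteasome subunits 3 fell and 0 rose, beside 17.1% and 17.3% of all tested genes. With equal totals 18 were called higher, and no direction is given for them.

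**Figure D4:**
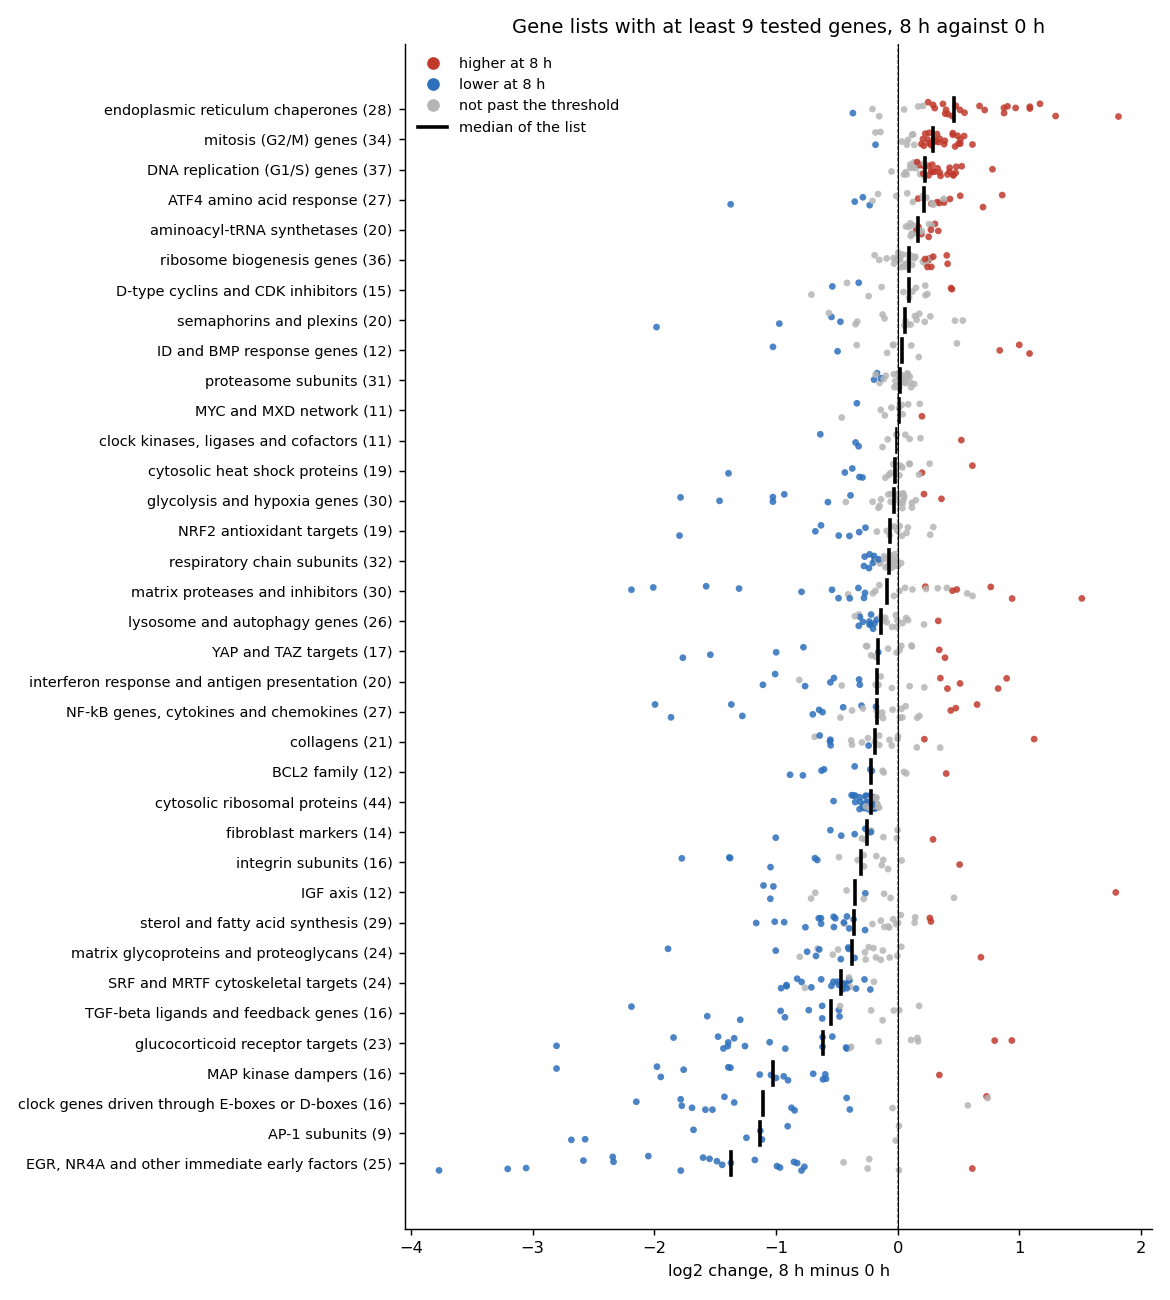
Log2 change, 8 h minus 0 h, of every tested member (points) of the lists with at least 9 tested genes, and the median of each list (black bars), ordered by median; the number of tested genes is in parentheses. Red members were called higher at 8 h, blue ones lower, grey ones neither. ER chaperones sit at the upper end (median 0.46) and immediate early factors at the lower end (median -1.37).

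Many cell cycle genes rose, by small amounts. Of 37 tested DNA replication (G1/S) genes 22 rose and 0 fell (median log2 0.22), beside 17.3% of all tested genes called higher. The number was 13 without replicate 2 of 0 h and 35 with equal totals. Cdc6, the loader of the replicative helicase, had 1754 and 1670.2 normalized reads at 8 h, against 1268 and 1113 at 0 h (log2 0.53 ± 0.073, adjusted p = 0.000113). Uhrf1, which keeps DNA methylation through replication, had 5242 and 4989 normalized reads at 8 h, against 3949 and 3664 at 0 h (log2 0.43), and Cdc45, Chaf1a and Orc1 rose by 0.41 to 0.46. Of 34 tested mitosis (G2/M) genes 25 rose and 1 fell (median log2 0.29), with 19 higher without replicate 1 of 8 h or replicate 2 of 0 h. Ect2, an exchange factor for cytokinesis, had 2577 and 2683 normalized reads at 8 h, against 1733 and 1701 at 0 h (log2 0.61, adjusted p = 9.43e-06). Bub1b, a spindle checkpoint kinase, had 3329 and 3189.8 normalized reads at 8 h, against 2272 and 2289 at 0 h (log2 0.51), and Cenpf, Kif2c and Kif20a rose by 0.38 to 0.50. In RNA from whole cultures, more cells in a phase and more RNA per cell cannot be told apart.

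Regulators of the cycle gave fewer calls. Of 15 tested D-type cyclins, pocket proteins and CDK inhibitors 2 rose and 2 fell, beside 17.3% and 17.1% of all tested genes. The counts were 6 and 5 with the replicate block, 6 and 1 with equal totals and 4 and 1 with quantile normalization. Cdkn1a, the inhibitor p21, had 4089 and 3801 normalized reads at 8 h, against 6002 and 5453 at 0 h (log2 -0.54, adjusted p = 0.000171), and Rbl1, the pocket protein p107, had 1309 and 1246 normalized reads at 8 h, against 927 and 949 at 0 h (log2 0.45). Rbl2 was called higher (0.44) and Ccnd3 lower (-0.32), and both calls were lost without some single libraries, with adjusted p up to 0.332 and 0.317. Of 5 tested replication-dependent histone genes 0 were called by limma, edgeR or DESeq2, with 1 at an unadjusted p under 0.05 in limma. That was Hist1h1e, with 14.6 and 19.5 normalized reads at 8 h, against 9.93 and 9.61 at 0 h (adjusted p = 0.0844, and 0.0406 with equal totals). Of 11 tested MYC and MXD network genes 1 rose and 1 fell, beside the same 17.3% and 17.1% of all tested genes. Mga was at 0.20 and Mlxip at -0.34. The call of Mga was lost without replicate 1 of 8 h (adjusted p = 0.183) or replicate 2 of 0 h (adjusted p = 0.107). Myc, named after its values were seen, had 7265 and 6378 normalized reads at 8 h, against 7559 and 6039.8 at 0 h, with an interval of -0.24 to 0.26.

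Of 36 tested ribosome biogenesis genes 8 rose and 0 fell, beside 17.3% of all tested genes called higher. The number higher was 15 with the replicate block, 17 with quantile normalization and 23 with equal totals, and 3 without replicate 1 of 8 h or 2 without replicate 2 of 0 h. Polr1a, the largest subunit of RNA polymerase I, had 5893 and 5440.4 normalized reads at 8 h, against 4471 and 4098 at 0 h (log2 0.40, adjusted p = 0.0011), and Wdr12, a factor of large subunit maturation, had 2222 and 2152 normalized reads at 8 h, against 1821 and 1752 at 0 h (log2 0.29). Of 44 tested cytosolic ribosomal proteins 28 fell and 0 rose (median log2 -0.22), but 6 fell with equal totals and 4 with quantile normalization. Leaving out single libraries gave 8 (without replicate 1 of 8 h), 17 (without replicate 1 of 0 h) and 12 (without replicate 2 of 0 h), and the replicate block 43. Rpl13 had 13428 and 14473 normalized reads at 8 h, against 18212 and 18042 at 0 h (log2 -0.38), and Rplp2 had 8260.2 and 8297 normalized reads at 8 h, against 10066 and 11057 at 0 h (log2 -0.35).

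Sterol and fatty acid synthesis genes, which the SREBP factors switch on when sterols are short, mostly fell. Of 29 tested genes 15 fell and 2 rose (median log2 -0.36), beside 17.1% and 17.3% of all tested genes. The sterol regulatory element searched for (TCACNCCAC, with N any base) was found in 0 of the 19 list members with a promoter window. Hsd17b7, an enzyme of the later steps of cholesterol synthesis, had 1159 and 1277 normalized reads at 8 h, against 2437 and 2470 at 0 h (log2 -1.01 ± 0.088, adjusted p = 1.57e-06), and Sc4mol had 2568 and 2718 normalized reads at 8 h, against 5573 and 4569 at 0 h (log2 -0.93). Insig1, the ER anchor that holds SREBP back, fell as well (-0.76), as did Cyp51 (-0.63), a demethylase of the same route. The median of the list was -0.019 at 4 h and -0.52 at 12 h, from the same 0 h libraries.

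Other metabolic lists held a few large falls among many small changes. Of 30 tested glycolysis and hypoxia genes 7 fell and 2 rose, beside 17.1% of all tested genes called lower and 17.3% called higher. Vegfa, the angiogenic growth factor, had 7205 and 5640.4 normalized reads at 8 h, against 22794 and 21184 at 0 h (log2 -1.79, adjusted p = 2.47e-06), and Adm, which encodes the vasodilator adrenomedullin, had 2597 and 2513 normalized reads at 8 h, against 5309 and 5099 at 0 h (log2 -1.03). Ankrd37 (-1.46), hexokinase 2 (Hk2, -1.03) and the glucose transporter Slc2a1 (-0.93) fell too. With equal totals 10 were higher and 6 lower, and the median was -0.032 with the deposited scaling and 0.11 with equal totals. Among 19 tested NRF2 antioxidant targets 7 fell and 0 rose (5 lower and 2 higher with equal totals), led by Hmox1, the heme-degrading oxygenase, with 1623 and 1486 normalized reads at 8 h, against 5371 and 5404 at 0 h (log2 -1.79). Srxn1 (-0.68), Ftl1 (-0.48), Me1 (-0.40) and Gstm1 (-0.63) followed. Of 32 tested respiratory chain subunits 8 were lower and 0 higher, beside the same shares of all tested genes (17.1% and 17.3%). With equal totals, however, 0 were lower and 2 higher, and leaving out single libraries gave 1 to 5 lower. Of 26 tested lysosome and autophagy genes 10 were lower and 1 higher, but with equal totals 1 was lower and 3 higher, and leaving out single libraries gave 1 to 6 lower. Npc1, a lysosomal cholesterol transporter, rose, with 884 and 839 normalized reads at 8 h, against 669 and 697 at 0 h (log2 0.33). Of 4 tested arrestin genes, Txnip rose and Arrdc3 was called lower (-0.48), with overlapping libraries and an adjusted p of 0.65 without replicate 2 of 0 h.

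Insulin and IGF signaling adaptors parted. Beside the rise of Irs1, Irs2 had 886 and 801 normalized reads at 8 h, against 1746 and 1879.6 at 0 h (log2 -1.10, adjusted p = 4.92e-06). Pappa, a protease that frees IGF from its binding proteins, had 417 and 475 normalized reads at 8 h, against 818 and 999.5 at 0 h (log2 -1.02), and Igf1r had 7918 and 7851 normalized reads at 8 h, against 9448 and 9518 at 0 h (log2 -0.27), a call lost with equal totals (adjusted p = 0.081). Of 12 tested genes of the axis 4 fell (7 with the replicate block, 2 with equal totals) and 1 rose. Beside this list and the next, 17.1% of all tested genes were called lower and 17.3% higher. Of 12 tested genes of the BCL2 family, which set the threshold of apoptosis, 7 fell (4 without replicate 1 of 8 h) and 1 rose. The protectors Bcl2l1 (-0.63) and Mcl1 (-0.61) and the killers Bcl2l11 (-0.89) and Bok (-0.35) were among those that fell, and Bid rose (0.40).

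NF-kB targets and cytokines were lower in 10 of 27 tested genes and higher in 3 (1 without replicate 2 of 0 h). The shares of all tested genes were 17.1% lower and 17.3% higher. Ptgs2, the inducible prostaglandin synthase COX-2, had 26197 and 19066 normalized reads at 8 h, against 96949 and 68195 at 0 h (log2 -1.86, adjusted p = 4.07e-05). Lif, a cytokine of the IL-6 family, had 823 and 589.7 normalized reads at 8 h, against 3381 and 2285 at 0 h (log2 -2.00). Replicate 1 was above replicate 2 at both times for these genes, and the times did not overlap. Il11 (-1.37) and the NF-kB feedback genes Nfkbia (-0.62) and Relb (-0.70) fell as well. Interferon response and antigen presentation genes gave 5 rises and 7 falls of 20, beside 17.3% and 17.1% of all tested genes. With equal totals 5 rose and 4 fell, without replicate 1 of 8 h 3 and 3, and without replicate 2 of 0 h 3 and 2, so that no direction is given for this list. Irf1, a transcription factor that interferon induces, had 905 and 929.9 normalized reads at 8 h, against 545 and 490.2 at 0 h (log2 0.83), and Ifit2 had 709 and 843 normalized reads at 8 h, against 388 and 443 at 0 h (log2 0.90), whereas Tapbp, the tapasin gene, had 1652 and 1612 normalized reads at 8 h, against 2656 and 2881 at 0 h (log2 -0.76). Gbp2 was lower (-1.01), though not without replicate 2 of 0 h (adjusted p = 0.052), and Tap1 higher (0.51). Of 20 tested semaphorins and plexins 4 fell and 0 rose (6 and 5 with the replicate block, and 4 and 5 with equal totals). Over all tested genes 17.1% were called lower and 17.3% higher. Sema4f had 161 and 74.7 normalized reads at 8 h, against 599 and 319 at 0 h (log2 -1.98), its replicates far apart at both times and its call lost without replicate 2 of 8 h (adjusted p = 0.0542). Sema3b had 117 and 109 normalized reads at 8 h, against 205 and 243 at 0 h (log2 -0.97).

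Marker lists of other cell types held few tested genes, some of them at high levels. Of the fibroblast markers 6 of 14 tested fell and 1 rose, beside 17.1% and 17.3% of all tested genes. The replicate block gave 9 lower and 1 higher, equal totals 3 and 1, and quantile normalization 2 and 3, so that the direction of the list depended on the scaling. P4hb, an enzyme of collagen folding that is also an ER chaperone, was the riser, with 56209.6 and 54256 normalized reads at 8 h, against 46259 and 44091 at 0 h (log2 0.29). Of 9 epithelial markers 3 were tested, and Krt8, a simple keratin, fell, with 536 and 410.4 normalized reads at 8 h, against 1079 and 791 at 0 h (log2 -0.98). The sum of the 9 was 493 to 648 normalized reads at 8 h and 903 to 1198 at 0 h. Of 7 neural markers 3 were tested, and Tubb3, a tubulin used as a marker of neurons, rose, with 672 and 600 normalized reads at 8 h, against 424 and 391 at 0 h (log2 0.64). The sum of the 7 was 3620 to 4710.2 at 8 h and 3206 to 4533 at 0 h, most of it from Nes, which was not called (adjusted p = 0.906). Of 8 skeletal muscle markers only Des was tested, with 36.4 and 26.4 normalized reads at 8 h, against 50.6 and 53.5 at 0 h, and was called lower (-0.73), a call lost with equal totals (adjusted p = 0.053) and in 5 other settings. The sums of the 8 were 36.8 to 43.7 at 8 h and 56.3 to 58.7 at 0 h, and Myod1, Myog and Myf5 were at 0 in all 4 libraries. Of the leukocyte (4 tested of 9), endothelial (2 of 7) and adipocyte markers (2 of 7) 0 were called by limma, edgeR or DESeq2, and 2, both of the leukocyte list, had an unadjusted p under 0.05 in limma. Their sums were 403 to 479, 95.4 to 106 and 334 to 539 at 8 h, against 421.5 to 476, 70.03 to 79.5 and 479 to 800.45 at 0 h. With the replicate block limma called 1 leukocyte and 1 adipocyte marker lower. The part of such cells in the results above was not tested.

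Genes whose change from 0 h to 8 h differed most from that of 24 h to 32 h were, for genes averaging 50 or more normalized reads over the 8 libraries, as follows. Below 0 the 8 with the smallest p were Egr2 (difference -4.33 ± 0.18, adjusted p = 7.58e-09), Errfi1 (-3.23), Sphk1 (-2.74), Nr4a1 (-2.48), Uap1 (-1.77), Aff1 (-1.54), Runx1 (-1.45) and Wisp1 (-1.39). Uap1, an enzyme that makes UDP-GlcNAc, had 1277 and 1397 normalized reads at 8 h, against 4358 and 3817 at 0 h. Aff1, a scaffold of the super elongation complex, had 2000.2 and 2067 normalized reads at 8 h, against 5029.5 and 5315 at 0 h, and Runx1, a transcription factor of blood and mesenchyme, had 1624 and 1697 normalized reads at 8 h, against 4639 and 4994 at 0 h. Runx1 had 1523 and 1658 normalized reads at 32 h, against 1651 and 1717 at 24 h, close to its 8 h level. Above 0 they were Kcnj2 (2.23 ± 0.23, adjusted p = 2.18e-05), Irs1 (1.64), Apln (1.03), Osr1 (0.95), Pcdh18 (0.92), Aspm (0.89), Dctd (0.79) and Rad50 (0.63). Osr1, a zinc finger factor of mesenchymal progenitors, had 2129 and 2174 normalized reads at 8 h, against 1308 and 1133 at 0 h, and Apln, which encodes the peptide apelin, had 569 and 609 normalized reads at 8 h, against 286 and 335 at 0 h. Pcdh18, a protocadherin, had 2605 and 2761 normalized reads at 8 h, against 1263 and 1365 at 0 h, and Aspm, a spindle pole protein, had 1910.1 and 1736 normalized reads at 8 h, against 988 and 987 at 0 h.

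Where the 8 h level stood within the whole course differed between groups. For 4 h, 8 h and 12 h in turn, median log2 changes from 0 h of the immediate early factors were -0.75, -1.37 and -1.19, and those of the E-box and D-box clock genes -0.40, -1.11 and -1.87. SRF and MRTF targets were at -0.069, -0.47 and -0.65, and replication genes at 0.0014, 0.22 and 0.43. These values share the 0 h libraries and are given side by side only. In the same order of times Timp3 averaged 56065, 16670 and 11075 normalized reads, and Fkbp5 averaged 3213, 2333 and 2318. The low level of Timp3 was seen at 8 h and not at 4 h.

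**Figure D5:**
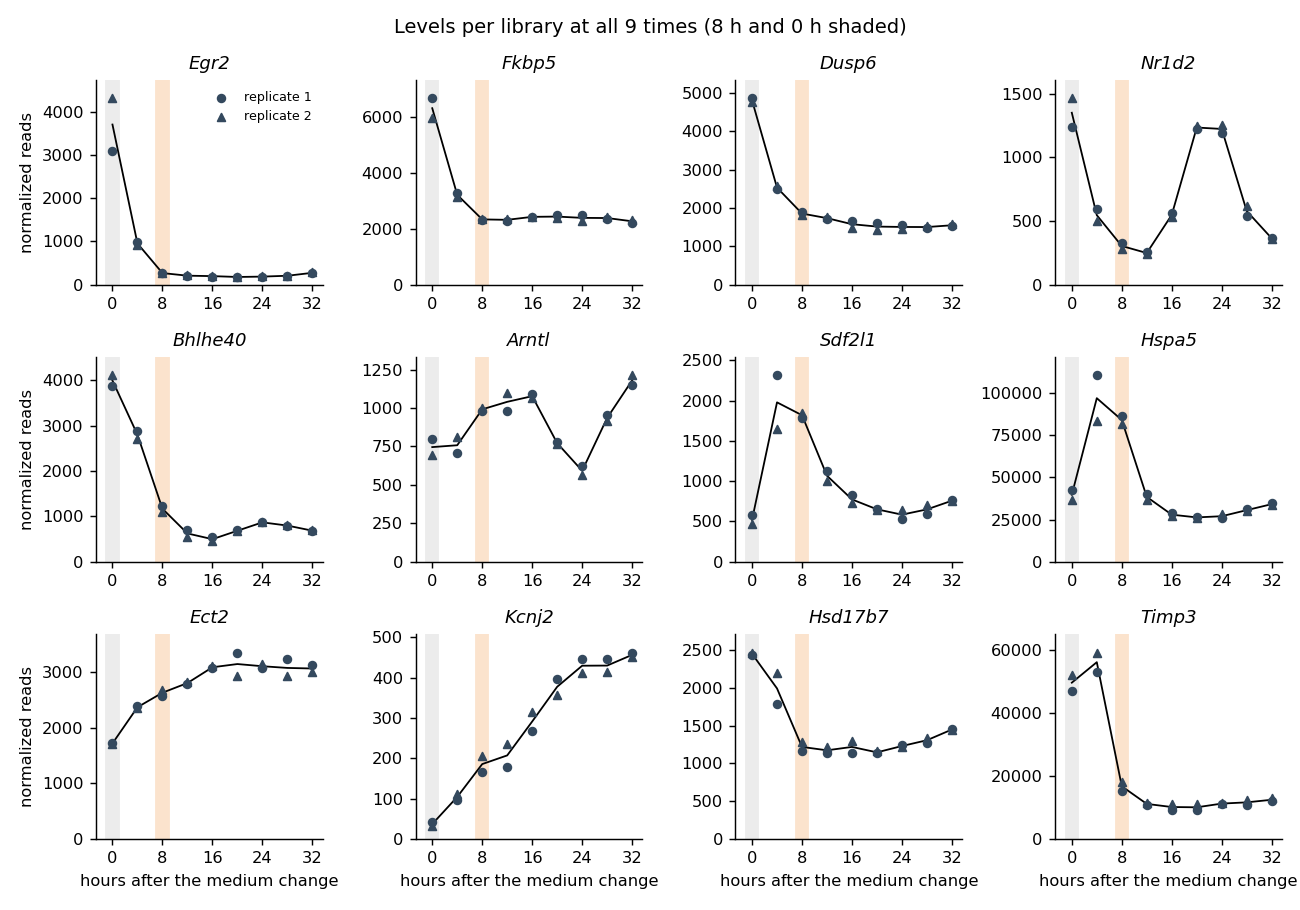
Normalized reads of 12 genes in single libraries at the 9 times from 0 h to 32 h after the medium change (circles replicate 1, triangles replicate 2, line the mean), with 8 h and 0 h shaded. Egr2, Fkbp5 and Dusp6 are at or near their lowest levels by 8 h, and Nr1d2 is near its 0 h level again at 24 h. By the mean, Sdf2l1 and Hspa5 are highest at 4 h, and Kcnj2 is higher at every later time than at 8 h. In single libraries, replicate 2 of Sdf2l1 is higher at 8 h (1848) than at 4 h (1644), and Kcnj2 at 12 h overlaps 8 h.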

How the data were processed

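The authors deposited 1 table of normalized signal for 18 RNA-seq libraries (2 at each of 9 times), that is, read counts per gene divided by a factor per library. Per the submitters' processing notes, TopHat, HTSeq and DESeq were used with the build mm9, with versions not given in the sources used here. The factors were recovered from the steps between low values, and 100% of the values in each library then came within 0.02 of whole reads. Recovered depth was 25.4 to 38.9 M reads per library, and factors were 0.728 to 1.16. Of 21937 genes, 4267 were at 0 in all libraries.

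A limma model (3.58.1, in R 4.3.3) with 1 mean per time was fitted to log2(value + 1) of all 18 libraries, with an intensity trend, for the 12393 genes with a mean of at least 10, because the unit is normalized signal and not counts. P-values were adjusted by the Benjamini-Hochberg method over all tested genes. Contrasts were 8 h minus 0 h, 32 h minus 24 h and the difference of the 2. Alternatives changed 1 choice at a time: pseudocounts of 0.5 and 5, no filter, a mean of at least 50, equal totals, quantile normalization, TMM factors, no trend, robust moderation, only the compared libraries, each library left out, a replicate block, and 2 count models fitted to the recovered reads, DESeq2 (1.42.0) and edgeR (4.0.16). Scripts were tested on simulated data.

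Same-numbered libraries deviated from their time means together: the correlation was over 0.1 in 36 of 36 pairs of times (0.230 to 0.502, and 0.363 for 8 h with 0 h). The labels do not say what a number stands for. The fit reported throughout has no replicate block. The fit with one is given beside most results where it changes a call or moves a count by more than 1.5 times. Small counts that it moved by a few genes are not all given. For example, it gave 5 lower and 2 higher proteasome subunits, and 4 higher cytosolic heat shock proteins.

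The genes and lists were chosen with earlier results of these data known. Genes were named by rule: the 12 highest and 12 lowest changes among called, non-overlapping genes with a mean of at least 50; the tested genes of 3 clock lists; up to 5 genes with the smallest p of every other list; the 8 with the smallest p in each direction of the difference; and cell type markers. Of the list members the rule names, some with small changes are not printed and 4 genes are not reported here, and Tsc22d3, Klf9, Nr4a2, Myc, Hspa5 and Hsp90b1 were added after their values were seen. Tfcp2l1, Ajuba, Bora, Hist2h3c2, Tfeb, Col6a3 and Map2 were not analysed here. Promoter windows are from RefSeq (GRCm38.p6), matched by symbol. Motifs without printed stretches were searched as well. The cAMP response element (TGACGTCA) was in 0 of 8 matched AP-1 subunits and 3 of 19 matched immediate early factors, against 3.53% of matched genes. An E2F site (TTTCCCGC) was in 7 of 31 matched replication genes, against 2.42%. Figures were drawn with matplotlib 3.10.9.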

Additional observations from a re-analysis of the deposited data

Results flagged for a closer look

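The results below were singled out because the 2 steps of the same length, 8 h against 0 h and 32 h against 24 h, differed by a direct test (limma, on the first change minus the second, adjusted over all tested genes). None is weighed here. Among the clock genes the difference was -1.10 for Per1, -0.89 for Per2, -1.43 for Bhlhe40, -1.52 for Nfil3, -0.58 for Arntl, -0.52 for Csnk1e and -0.41 for Fbxw11, all below 0. It was 0.80 for Cry1 and 0.62 for Timeless, both above 0.

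Among early response genes and others it was below 0 for Egr2 (-4.33), Errfi1 (-3.23), Sphk1 (-2.74), Nr4a1 (-2.48), Uap1 (-1.77), Aff1 (-1.54), Runx1 (-1.45) and Wisp1 (-1.39). It was above 0 for Kcnj2 (2.23), Irs1 (1.64), Apln (1.03), Osr1 (0.95), Pcdh18 (0.92), Aspm (0.89), Dctd (0.79) and Rad50 (0.63). These changes are on the log2 scale. The 0 h libraries enter the first change only, and the time since the medium change differs between the steps by 24 h.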

How the results depend on the processing

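For 8 h against 0 h, 4263 genes were called, of which 2144 were higher and 2119 lower. Fitting only the 4 compared libraries gave 2806 calls, 1265 of them higher. Leaving out single libraries gave 2571 to 3620 calls, 1285 to 1838 higher and 1286 to 1782 lower, the lowest without replicate 2 of 0 h. Equal totals gave 4011 higher and 1148 lower, so that 77.75% were higher. The 83 genes higher by at least 2-fold became 147 with no filter, 44 with a mean of at least 50, 184 with equal totals, 54 with DESeq2, and 85 to 147 with single libraries left out. On the recovered reads edgeR called 4167 genes and DESeq2 3941. With the replicate block 5976 genes were called. It added calls for Hlf and Btrc, and for Col1a2 and Twist1 (both lower, adjusted p = 0.00273 and 0.0064), and changed no other call at 8 h against 0 h of a gene named in the text.

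For 32 h against 24 h, 5 genes were called (1 higher, 4 lower). The replicate block gave 242 (132 higher, 110 lower), DESeq2 gave 12 (5 higher, 7 lower), and leave-outs gave 2 to 4 in all and 1 to 3 lower. For the difference, 2508 genes were called, 1210 above 0 and 1298 below. The replicate block gave 4510 (2151 and 2359), equal totals 2617 and 856, with 75.35% above 0, and the compared libraries alone 791 above 0. Leave-outs gave 1439 to 2379 in all, 628 to 1151 above 0 and 811 to 1228 below. The cause of these shifts was not tested beyond the smaller number of libraries in the leave-outs.

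Of the 203 tested genes named in the text, 185 were called at 8 h against 0 h. Of these, 161 stayed past the threshold in every alternative that tested them, 24 lost their call in at least 1, and 0 reversed. There were 17 alternatives, and Bhlhe41, which kept its call, was tested in 16 of them. Of the 18 that were not called, 6 passed with the same sign in at least 1 alternative. Nono, at -0.0090 and not called, was called higher with equal totals (0.1329) and with quantile normalization (0.1737).

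With 2 libraries at each time the precision of single genes is limited, and the labels do not say whether replicates were separate cultures. Genes with few reads have wide intervals, the more so at 25.4 M reads, the lowest depth. Small changes depend on the scaling of libraries whose totals differed between 8 h and 0 h. Changes of lists under 0.14 on the log2 scale are within the shift that equal totals give.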
